A study of Homo sapiens with 6 samples.

Results

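Peak intervals of 1500 bp or more were examined in ATAC-seq peak lists of 6 T-ALL cell lines. In each line's list every distinct interval on chromosomes 1 to 22 and X was measured from its start to its end, and those of at least 1500 bp, called wide intervals here, were kept. There were 647 wide intervals among 116055 intervals in the 6 lists. Wide intervals that overlapped by at least 1 bp in different lines were merged into 325 wide loci, whereas all intervals of any width merged into 40110 regions. The members were selected on width alone, so their width, and the summit number, fold and height that come from the same peak call, are given as a description with no test.

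ATAC-seq inserts sequencing adapters into DNA with the Tn5 transposase, which cuts mainly where chromatin is open, and a peak is a stretch with more inserted fragments than its surroundings. Most peaks span 1 regulatory element, a promoter or enhancer flanked by nucleosomes. A peak caller can report a longer stretch as 1 interval when neighbouring elements are all accessible and the signal between them stays above its threshold, and it can then mark several summits, the local maxima, within that interval. A wide interval is thus a stretch that the caller reported without a break, and it need not be a single element. Whether its signal stayed above the threshold throughout is not given in the lists.

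The lines were MOLT-4, CCRF-CEM, TALL-1, KOPT-K1, HBP-ALL and DND-41, all established from T-cell acute lymphoblastic leukaemia, a malignancy of immature T cells. All groups were grown in RPMI-1640 with FBS and Pen/Strep, and the labels name no other treatment, genotype or passage. Each line is an established culture with 1 library, so the spread between libraries of a line is unknown and a difference between lines cannot be told apart from a difference between libraries. No gene expression comes with the lists, so the labelled cell type could not be checked against markers.

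The lists held 16507 to 22367 intervals per line, with a median width of 436 bp in CCRF-CEM and 491 to 531 bp in the other lines. Total read numbers are not in the lists. A relative tag depth, taken from the lowest local background in each list, was set to 1 in CCRF-CEM and came to 1.35 in MOLT-4, 1.55 in KOPT-K1, 1.70 in DND-41, 1.93 in HBP-ALL and 2.1 in TALL-1. CCRF-CEM thus stood lowest in depth and in median width while it had the largest number of intervals. A further 12 wide intervals, 2 in each list, lay on the mitochondrial genome and were left out.

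Wide intervals were rare in every list and rarest in CCRF-CEM. CCRF-CEM had 64 wide intervals, 0.286% of its intervals (exact 95% interval 0.220 to 0.365%). MOLT-4 had 96, or 0.502% (0.407 to 0.613%), and KOPT-K1 had 104, or 0.574% (0.469 to 0.695%). TALL-1 had 108, or 0.654% (0.537 to 0.789%), HBP-ALL had 140, or 0.635% (0.534 to 0.749%), and DND-41 had 135, or 0.754% (0.633 to 0.892%). The interval of CCRF-CEM lay below those of the other 5 lines, which overlapped one another in most pairs, and these intervals cover counting error only. As a share of all bases under peaks, the wide intervals made up 1.02% in CCRF-CEM, 1.52% in MOLT-4, 1.73% in KOPT-K1, 1.92% in HBP-ALL, 1.95% in TALL-1 and 2.19% in DND-41. CCRF-CEM also had the lowest relative tag depth, and the part of depth in these counts was not tested.

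Within the wide intervals CCRF-CEM did not have the narrowest ones. The median wide interval measured 1697.5 bp in CCRF-CEM, 1649 bp in DND-41, 1627.5 bp in HBP-ALL, 1618.5 bp in MOLT-4, 1617 bp in TALL-1 and 1608.5 bp in KOPT-K1. At 2000 bp or more there were 12 intervals in CCRF-CEM, 10 in DND-41, 8 in TALL-1, 7 each in KOPT-K1 and MOLT-4, and 6 in HBP-ALL. CCRF-CEM therefore had the fewest intervals from 1.5 to under 1.75 kb, 38 against 69 to 109 in the other lines, and the most at 2000 bp or more. The widest interval of every list was the same locus, on chromosome 6, at 2860 to 2948 bp.

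The limit of 1500 bp fell in a continuous range of widths. There were 160 intervals at it or less than 50 bp above it, and 204 that fell short of it by at most 50 bp. Exactly 1500 bp was reached by chr10:180857-182356 in HBP-ALL, with 5 summits and a fold of 5.52 over local background, by chr1:212458120-212459619 in KOPT-K1, with 2 summits and a fold of 9.57, and by 2 intervals of MOLT-4 with 3 summits each. At 1 bp short of the limit were chr5:180687781-180689279 in KOPT-K1, with 3 summits and a fold of 9.09, an interval on chromosome 8 in CCRF-CEM, with 3 summits and a fold of 6.13, and an interval on chromosome 2 in MOLT-4, with 2 summits and a fold of 7.79.

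**Figure D1:**
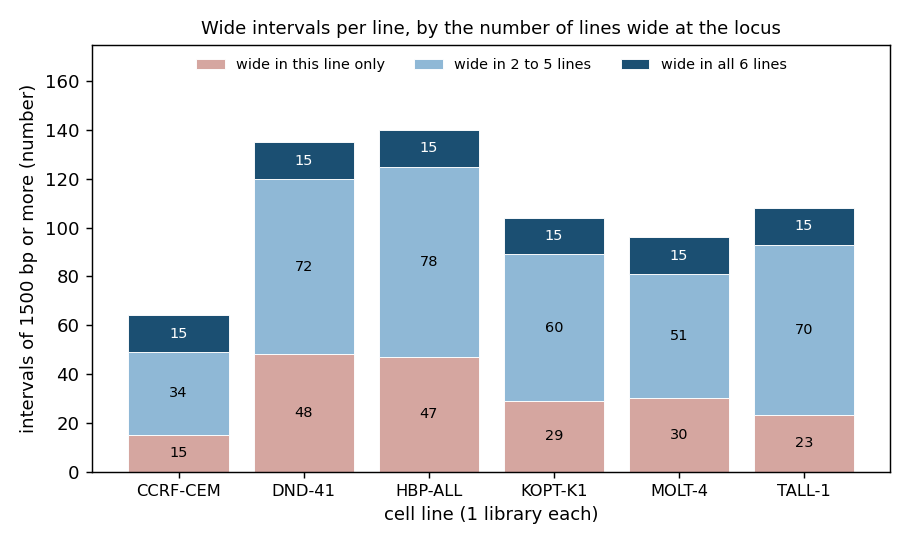
Number of intervals of 1500 bp or more in each of the 6 lines (1 library each), split by whether the locus was wide in that line only, in 2 to 5 lines or in all 6. CCRF-CEM has 64 in all and HBP-ALL 140, and the same 15 loci form the top part of every bar.

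Most wide loci were wide in only 1 line. Of the 325 loci, 192 (59.1%) were wide in 1 line, 48 in 2, 28 in 3, 25 in 4, 17 in 5 and 15 (4.62%) in all 6. By line, the loci wide there alone numbered 23 of 108 in TALL-1 (21.3%), 15 of 64 in CCRF-CEM (23.4%), 29 of 104 in KOPT-K1 (27.9%), 30 of 96 in MOLT-4 (31.3%), 47 of 140 in HBP-ALL (33.6%) and 48 of 135 in DND-41 (35.6%). When the 64 widest intervals of each line were taken instead, the width limit was 1503 bp in CCRF-CEM and 1590 to 1651 bp in the other lines. CCRF-CEM then had 27 loci wide there alone, the most, and the other lines 15 to 22. Under its lower limit an interval can count as wide in CCRF-CEM alone even where another line is equally wide. The order of the lines is thus partly set by these limits. The more lines shared a wide locus, the wider its widest interval was. The median of that widest interval was 1580.5 bp at loci wide in 1 line, 1642 bp in 2, 1664.5 bp in 3, 1744 bp in 4, 1907 bp in 5 and 1985 bp in all 6. A locus further above 1500 bp in 1 line has more room to stay above it in the others, so this order is partly set by the limit itself.

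Being wide in 1 line seldom meant being a peak in 1 line. A peak of any width was present in all 6 lines at 275 of the 325 wide loci, or 84.6% (exact 95% interval 80.2 to 88.4%), against 22.6% of the 40110 merged regions. A peak was present in 5 lines at 31 loci, in 4 at 6, in 3 at 7, in 2 at 4 and in 1 line only at 2 loci. Of all merged regions, 43.2% had a peak in 1 line only. Among the 192 loci wide in 1 line alone, 154 (80.2%, 73.9 to 85.6%) still had a peak in all 6. At those 192 loci the widest interval of any other line had a median width of 1316 bp, and at 112 of them (58.3%) another line reached 1.25 kb. In 156 of them another line reached 1000 bp, and in 10 no other line reached 750 bp. Most loci wide in 1 line thus had a nearly as wide interval in at least 1 other line.

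A wide merged locus covers more sequence than a narrow one and can meet a peak of another line more easily, so sharing was also measured at a single base, the strongest summit. The strongest summit of a wide interval lay inside a peak of all 5 other lines for 81.3% of wide intervals in CCRF-CEM, 82.9% in HBP-ALL, 84.4% in DND-41, 87.5% in MOLT-4, 88.5% in KOPT-K1 and 88.9% in TALL-1. For all intervals the shares were 39.2%, 39.2%, 48.5%, 45.3%, 47.9% and 52.9% in the same order of lines. The share was higher among wide intervals than among all intervals in 6 of 6 lines. It did not set wide intervals apart from the next narrower class, since intervals of 1000 to under 1500 bp had shares of 80.3 to 89.5%, whereas those of 500 to under 1000 bp had 62.6 to 77.3% and those under 500 bp 14.3 to 24.1%. The strongest summit lay in a peak of no other line for 3 wide intervals of HBP-ALL, 1 of KOPT-K1 and 1 of TALL-1, and for none in CCRF-CEM, DND-41 and MOLT-4. Over all intervals this share was 22.7% in HBP-ALL, 9.54% in KOPT-K1, 10.3% in TALL-1, 30.1% in CCRF-CEM, 9.34% in DND-41 and 11.3% in MOLT-4. It was also low at 1000 to under 1500 bp, at 0.145 to 3.23%.

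**Figure D2:**
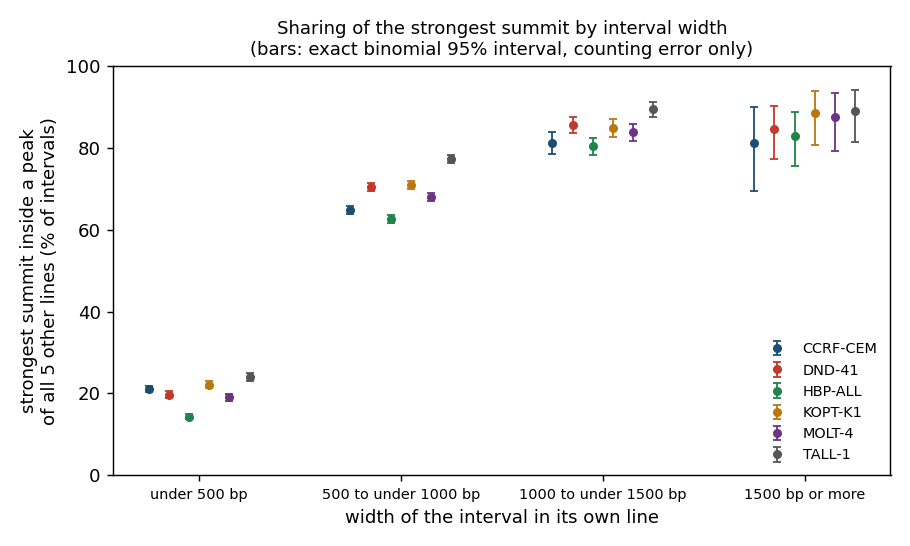
Share of intervals whose strongest summit lay inside a peak of all 5 other lines (y axis, percent of intervals), by width class of the interval (x axis), with 1 point per cell line and exact 95% intervals for counting error. Shares lie at 14.3 to 24.1% under 500 bp and at 81.3 to 88.9% at 1500 bp or more, close to the 80.3 to 89.5% of the class from 1000 to under 1500 bp.

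What the lines had at the 325 loci was counted for each pair of locus and line. Of these 1950 pairs, 647 held a wide interval, 933 held 1 narrower interval, 280 (14.4%) held several narrower intervals and 90 held no peak. In CCRF-CEM 183 loci held 1 narrower interval, 55 held several and 23 had no peak. TALL-1 had 138, 54 and 25 in these classes, and DND-41 had 140, 35 and 15. The counts were 127, 46 and 12 in HBP-ALL, 164, 48 and 9 in KOPT-K1, and 181, 42 and 6 in MOLT-4. TALL-1 and CCRF-CEM thus had the most wide loci without any peak. TALL-1 had the fewest intervals of any width, 16507, and CCRF-CEM the most, 22367. The share of all merged regions without a peak in each line is not given here. The part of depth or of the number of intervals in these counts was not tested.

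**Figure D3:**
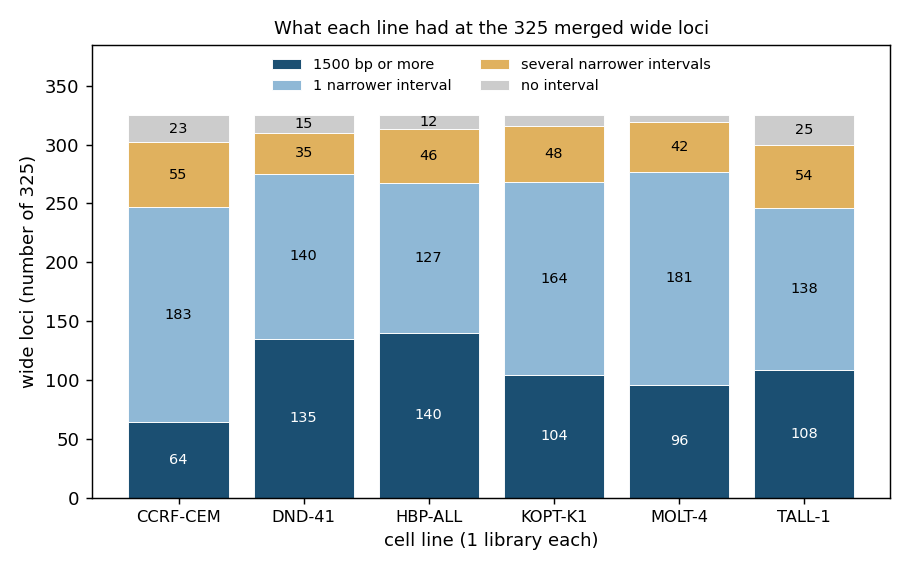
State of each of the 325 merged wide loci in each line (y axis, number of loci): wide, 1 narrower interval, several narrower intervals, or no peak. Loci without a peak number 6 in MOLT-4 to 25 in TALL-1, and narrower single intervals are the largest class in CCRF-CEM, DND-41, KOPT-K1, MOLT-4 and TALL-1.

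Where a line held several narrower intervals, the largest gap between them had a median of 358.5 bp and reached at most 1276 bp. The smallest gap between neighbouring intervals anywhere in a list was 192 to 210 bp, depending on the line, 1 or 2 bp more than the smallest interval width of that list (191 to 209 bp). In 61 of the 192 loci wide in 1 line alone (31.8%), at least 1 other line had several intervals whose outer ends were 1500 bp or more apart. In 15 loci this was so in at least 4 other lines and in 9 loci in all 5 others. DND-41 was the wide line in 21 of the 61 loci, HBP-ALL in 11, MOLT-4 in 10, KOPT-K1 in 8, CCRF-CEM in 6 and TALL-1 in 5. At these loci another line had peaks over a stretch as long as a wide interval, with a break in the call.

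The widest locus of DND-41 that no other line had as a wide interval was of this kind. At chr4:184425225-184427529 DND-41 had 1 interval of 2305 bp with 3 summits. Each of the other lines had 2 intervals there, the wider of which measured 1158 bp in CCRF-CEM, 997 bp in HBP-ALL, 1131 bp in KOPT-K1, 1150 bp in MOLT-4 and 1112 bp in TALL-1. Their gaps were 662, 716, 387, 513 and 567 bp in that order, and their outer ends were 2274, 2321, 2235, 2320 and 2277 bp apart. The pileup, the number of tags at the strongest summit, was 128 in DND-41 and, in rising order elsewhere, 101 in HBP-ALL, 121 in CCRF-CEM, 127 in MOLT-4, 132 in TALL-1 and 165 in KOPT-K1. DND-41 was thus in the middle of the range of unscaled heights where it alone had an unbroken interval.

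The corresponding loci of KOPT-K1 and MOLT-4 were split elsewhere too. At chr13:37573047-37575206 KOPT-K1 had 1 interval of 2160 bp with 4 summits, and the other lines had 2 intervals each, the wider being 747 to 1217 bp, with gaps of 333 to 608 bp. The pileups were 65 in KOPT-K1 and, elsewhere, 49 in MOLT-4, 60 in HBP-ALL, 65 in DND-41, 87 in CCRF-CEM and 135 in TALL-1. At chr13:91999579-92001581 MOLT-4 had 1 interval of 2003 bp with 2 summits, and the other lines had 2 intervals each, the wider being 946 to 1069 bp, with gaps of 229 to 481 bp. The unscaled pileup was lowest in the wide line there, at 91 in MOLT-4. It was 95 in HBP-ALL, 113 in KOPT-K1, 134 in DND-41, 152 in CCRF-CEM and 165 in TALL-1. With each pileup divided by its line's median at regions shared by all lines, MOLT-4 ranked 5 from the highest.

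At the corresponding loci of CCRF-CEM, HBP-ALL and TALL-1 most or all of the other lines had 1 narrower interval or no peak. At chr3:177075803-177078180 CCRF-CEM had an interval of 2378 bp with 7 summits, where the widest interval was 961 bp in DND-41, 1324 bp in HBP-ALL, 1159 bp in KOPT-K1, 992 bp in MOLT-4 and 789 bp in TALL-1. The pileup there was 88 in CCRF-CEM, the line of lowest depth, and 68, 50, 45, 40 and 43 in the others in that order. CCRF-CEM was highest at this locus before any scaling. At chr3:151986249-151988039 HBP-ALL had 1791 bp with 4 summits, against 928 bp in CCRF-CEM, 1205 bp in DND-41, 495 bp in KOPT-K1, 889 bp in MOLT-4 and 1103 bp in TALL-1. At chr21:27541512-27543475 TALL-1 had 1964 bp with 5 summits and a pileup of 114, KOPT-K1 had 808 bp, MOLT-4 had 523 bp, and CCRF-CEM, DND-41 and HBP-ALL had no peak.

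At 2 loci a wide interval stood in 1 line with no peak of any width elsewhere. At chr3:167812628-167814337 HBP-ALL had 1710 bp with 3 summits, a pileup of 68 and a fold of 7.27. At chr10:81002151-81003860 TALL-1 had 1710 bp with 4 summits, a pileup of 36 and a fold of 4.27. The first was near the median fold of wide intervals in its list, 6.54, and the second lay below the corresponding 6.28 of TALL-1.

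Height was compared between lines at the 154 loci that were wide in 1 line and had a peak in all 6. Each line's pileup was divided by its median pileup at regions shared by all lines, which was 31 in CCRF-CEM, 36 in KOPT-K1 and MOLT-4, 39 in HBP-ALL, 40 in DND-41 and 44 in TALL-1. The wide line was the highest of the 6 at 45 loci (29.2%) and lay below the median of the others at 42. The ratio of the wide line to the median of the other 5 was 1.15 at the median locus, with 0.826 and 1.79 as its 10th and 90th percentiles. The median ratio was 0.945 where HBP-ALL was the wide line (34 loci), 1.13 for DND-41 (41 loci) and MOLT-4 (26 loci), 1.2 for KOPT-K1 (24 loci), 1.33 for TALL-1 (18 loci) and 1.43 for CCRF-CEM (11 loci). The wide line was thus somewhat higher than the others at the median locus where it was CCRF-CEM or TALL-1, and somewhat lower where it was HBP-ALL. HBP-ALL and DND-41, with the most wide intervals, were highest of the 6 at 3 and 6 of their loci, and CCRF-CEM was at 9 of its 11. How often each line was highest over all regions shared by all lines is not given here. The loci were selected on width from the same call, so these counts are a description.

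The 15 loci wide in all 6 lines lay on chromosomes 4 and 13 (3 each), 3 and 7 (2 each), and 2, 6, 11, 19 and 21 (1 each). Their widths ranged from 1500 to 2948 bp, and 7 of them dipped below 1600 bp in at least 1 line. The start of the interval differed between lines by a median of 126 bp over the 15 loci (21 to 430 bp) and the end by 189 bp (18 to 508 bp). These medians describe each edge on its own, and the 2 edges of a locus could differ. At chr13:74707953-74710065 the start varied by 122 bp and the end by 508 bp.

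The widest of them was chr6:58776482-58779429. It measured 2865 bp in CCRF-CEM, 2885 bp in DND-41, 2940 bp in HBP-ALL, 2860 bp in KOPT-K1, 2893 bp in MOLT-4 and 2948 bp in TALL-1, a mean of 2898.5 ± 37.4 bp (SD over 6 lines). It had 7, 8, 9, 7, 7 and 8 summits in that order of lines, and the 9 in HBP-ALL were the most of any wide interval in the 6 lists. Its pileup was 318, 684, 850, 588, 418 and 1234 tags, over a local background of 64.1, 143, 171, 133, 82.7 and 242 tags. Over this background its fold was 4.39 to 5.09. The nearest peak before it lay 488.4 to 488.6 kb away in all 6 lines, and the next one after it 3.69 to 5.50 Mb away. No genome of hg19 was used, so how much of these stretches could hold a peak is not known here.

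The second widest, chr21:9825473-9827531, was also the most uniform. It measured 2024 bp in CCRF-CEM, 2033 bp in DND-41, 2030 bp in HBP-ALL, 2053 bp in KOPT-K1, 2047 bp in MOLT-4 and 2036 bp in TALL-1, a mean of 2037 ± 10.9 bp (SD over 6 lines). Its pileup was 440, 435, 525, 673, 1104 and 625 tags over a background of 92.1 to 246 tags, so MOLT-4 was highest, whereas TALL-1 was highest at the locus on chromosome 6. Both loci had a local background of more than 20 tags in all 6 lines, which 7 other wide loci had in 1 or more of the lines where they were wide. The median background over all intervals was 1.63 to 3.42 tags, depending on the line. The lists do not tell how reads were mapped at these loci. Copy number and read mapping cannot be told apart from accessibility there.

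The next loci had local backgrounds below 20 tags. These were 9.65 to 15.5 tags on chromosome 11, 9.22 to 12.1 on chromosome 4 and 9.19 to 19.6 on chromosome 13. The median at wide intervals was 7.85 to 11.6 tags, depending on the line. At chr11:58345119-58347420 the widths were 2097 bp in CCRF-CEM, 2035 bp in DND-41, 2144 bp in HBP-ALL, 2040 bp in KOPT-K1, 1965 bp in MOLT-4 and 1741 bp in TALL-1, and TALL-1 was the narrowest although its pileup of 82 was the highest of the 6. At chr4:174089263-174091433 the widths were 1962, 2171, 1581, 2004, 1916 and 2059 bp in the same order, with HBP-ALL the narrowest. At chr13:74707953-74710065 they were 2050, 2029, 1991, 1571, 1943 and 1883 bp, with KOPT-K1 apart from the other 5. The line that was narrowest thus differed from locus to locus.

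At chr7:100025912-100028000 the widths were 1856 bp in CCRF-CEM, 1735 bp in DND-41, 1784 bp in HBP-ALL, 1828 bp in KOPT-K1, 2009 bp in MOLT-4 and 2089 bp in TALL-1. The pileups there were 28, 53, 49, 44, 84 and 92 tags, and the 2 lines with the highest pileups were also the widest. At chr19:54693186-54695157 the widths were 1665, 1863, 1930, 1773, 1892 and 1931 bp, and at chr13:113862568-113864552 they were 1763, 1804, 1646, 1813, 1595 and 1985 bp. At chr13:60970235-60972066 they were 1778, 1822, 1759, 1739, 1625 and 1786 bp, an SD of 67.9 bp, and at chr7:104653000-104654858 they were 1667, 1710, 1694, 1742, 1843 and 1713 bp, an SD of 61.4 bp. These last 2 had starts within 32 and 29 bp across the 6 lines, so their widths differed mainly at the other end. The other 5 loci of the 15 had mean widths of 1623 to 1725 bp.

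**Figure D4:**
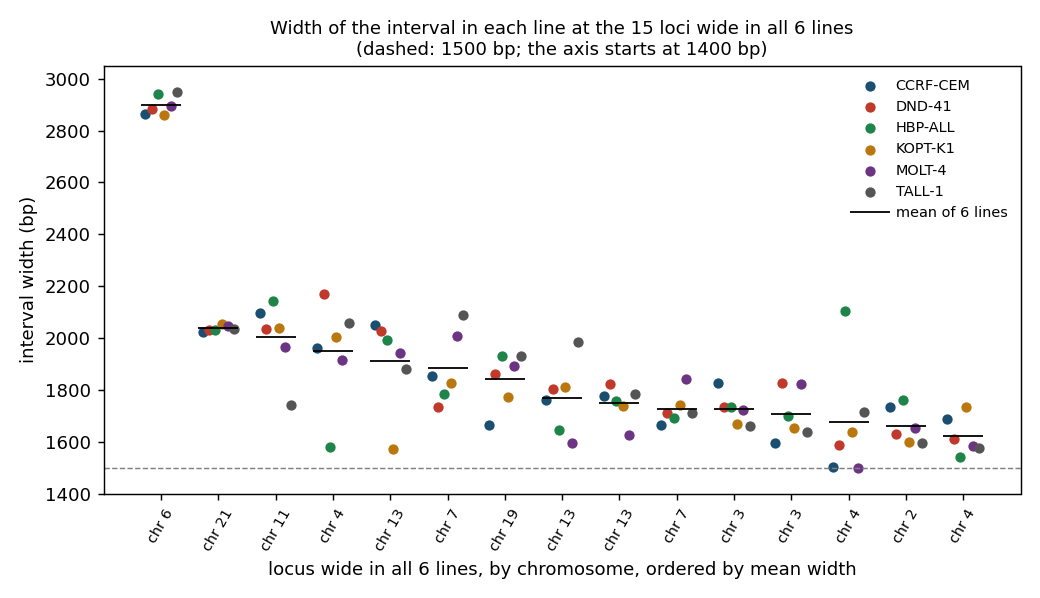
Width of the interval (y axis, bp, starting at 1400 bp) in each line at the 15 loci wide in all 6 lines, ordered by mean width (x axis), with 1 point per line and a dashed line at 1500 bp. The locus on chromosome 6 lies alone at 2860 to 2948 bp, and the points at the locus on chromosome 21 nearly coincide at 2024 to 2053 bp.

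CCRF-CEM was the line that was missing most often from otherwise shared loci. Of the 17 loci wide in 5 lines, CCRF-CEM was the line without a wide interval at 8, MOLT-4 and TALL-1 at 3 each, and DND-41, HBP-ALL and KOPT-K1 at 1 each. The widest of the 8 was chr5:107716393-107718414, with 1440 bp in CCRF-CEM against 1924 bp in DND-41, 1906 bp in HBP-ALL, 1648 bp in KOPT-K1, 1607 bp in MOLT-4 and 1883 bp in TALL-1. Without CCRF-CEM, 23 loci were wide in all 5 remaining lines. CCRF-CEM had the fewest wide intervals, 64 against 96 to 140 in the other lines. A line with fewer wide intervals has more loci to miss, so this order is partly set by the common limit. The relative tag depth of CCRF-CEM was also the lowest, and the part of depth in this was not tested.

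At the widest such locus of each other line the missing interval was either just short of the limit or broken. At chr3:178865074-178867099 MOLT-4 had 1492 bp against 1579 to 1974 bp elsewhere, and at chr3:143689777-143692190 TALL-1 had 1474 bp against 1570 to 2414 bp. DND-41 had 2 intervals with a gap of 269 bp at chr4:6783898-6785518, the wider of 876 bp, while the others measured 1539 to 1614 bp. HBP-ALL had a gap of 323 bp at chr13:41634248-41636184, where its widest interval was 1028 bp against 1771 to 1865 bp. KOPT-K1 had a gap of 420 bp at chr3:113464104-113466121, with 1126 bp against 1659 to 1981 bp.

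Pairs of lines shared wide loci unevenly. HBP-ALL and TALL-1 were both wide at 60 loci, which were 42.9% of the wide loci of HBP-ALL and 55.6% of those of TALL-1. DND-41 and HBP-ALL shared 59, and the fewest, 27, were shared by CCRF-CEM with MOLT-4 and with TALL-1. The wide intervals of the other lines were also wide in CCRF-CEM in 25.0 to 28.8% of cases, depending on the line, with a median width there of 1156.5 to 1313.5 bp. The share was 32.6 to 42.2% in MOLT-4, 36.4 to 50.9% in KOPT-K1, 41.5 to 52.9% in TALL-1, 42.1 to 57.8% in DND-41 and 43.7 to 59.4% in HBP-ALL. Lines with more wide intervals held larger shares of the others' wide loci. A locus wide in exactly 2 lines was shared by HBP-ALL and TALL-1 in 7 cases, the most of any pair.

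Almost all wide intervals held several summits. The 647 intervals held 2196 summits, a mean of 3.39, and 537 of them (83.0%) held 2 to 4, while 11 held 1. The 7 intervals with 7 or more were the 6 at the locus on chromosome 6 and the interval of CCRF-CEM at chr3:177075803-177078180. The mean per wide interval was 3.20 in KOPT-K1, 3.23 in CCRF-CEM, 3.28 in DND-41, 3.47 in MOLT-4, 3.52 in TALL-1 and 3.57 in HBP-ALL, against 1.11 to 1.25 over all intervals and 1.85 to 2.24 at 1000 to under 1500 bp. At least 4 summits were marked in 31.3% of wide intervals in CCRF-CEM, 32.6% in DND-41, 33.7% in KOPT-K1, 43.8% in MOLT-4, 46.3% in TALL-1 and 49.3% in HBP-ALL. Summit number rose with width within the wide intervals, from 3.19 ± 0.97 (SD over 480 intervals) at 1.5 to under 1.75 kb through 3.68 ± 1.09 (117 intervals) at 1.75 to under 2 kb to 4.68 ± 1.49 (50 intervals) at 2000 bp or more. Longer intervals have room for more summits, so these counts are linked by construction.

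Neighbouring summits of wide intervals were spaced by a median of 345.5 bp in HBP-ALL, 368.5 bp in TALL-1, 376.5 bp in DND-41, 383 bp in MOLT-4, 388 bp in KOPT-K1 and 459 bp in CCRF-CEM. The closest pair of summits was 55 to 79 bp apart, depending on the line. The weakest summit of an interval had a median fold of 53.3 to 58.5% of that of the strongest. Each marked summit had already passed the caller's limit, and with only summits of a −log10 p of at least 10 the mean fell from 3.39 to 2.62 summits per interval.

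The strongest summit was not placed preferentially in the middle. It lay in the central 33.3% of the interval's length in 36.1% of wide intervals in TALL-1, 35.4% in MOLT-4, 34.6% in KOPT-K1, 34.4% in CCRF-CEM and 34.3% in HBP-ALL, but 30.4% in DND-41. Over all intervals this share was 62.4 to 64.5%, and among narrower intervals with several summits it was 41.0 to 50.4%. A wide interval was therefore close to an even placing of its strongest summit along its length, unlike the average interval.

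Where 2 lines were both wide at a locus, each summit of 1 line was set against the nearest of the other, in 4842 comparisons. The median distance was 66 bp, with 42.3% within 50 bp, 62.4% within 100 bp and 17.5% more than 200 bp apart. Summits of 1 locus share their interval, so these comparisons are not independent, and summits placed without relation in intervals of this size would also lie near one another. Whether the positions recur was not tested.

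Exceptions stood at both ends of the summit range. The widest interval with 1 summit was KOPT-K1's at chr4:174254891-174256691, 1730 bp with a pileup of 129, where the other lines measured 1376 bp in CCRF-CEM, 1427 bp in DND-41, 1710 bp in HBP-ALL, 1525 bp in MOLT-4 and 1546 bp in TALL-1. Among intervals of 1500 to under 1600 bp the most summits were 6, marked in 3 intervals. These were in TALL-1 at chr19:56110365-56112070 (1579 bp), in HBP-ALL at chr4:99181476-99183272 (1522 bp) and in KOPT-K1 at chr6:111803650-111805293 (1506 bp), where the coordinates are those of the merged locus.

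Wide intervals were tall in tags but not in fold. The median pileup at the strongest summit of wide intervals was 55.5 tags in MOLT-4, 58 in HBP-ALL, 64.5 in KOPT-K1, 68 in DND-41, 68.5 in CCRF-CEM and 76.5 in TALL-1, against 20 to 29 over all intervals and 50 to 62 at 1000 to under 1500 bp. The median fold over local background was 6.04, 6.54, 6.67, 6.74, 7.85 and 6.28 in that order, against 6.85, 6.83, 6.95, 7.12, 7.93 and 6.84 over all intervals. The fold of wide intervals was below that of all intervals in 6 of 6 lines, and below the 7.64 to 9.23 of intervals of 1000 to under 1500 bp. The median local background at wide intervals was 7.85 to 11.6 tags against 1.63 to 3.42 over all intervals. Fold, pileup and width come from the same call and are not independent measures.

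Wide loci were unevenly spread over chromosomes. Chromosome 4 held 36 wide loci, 11.1% of the 325 (exact 95% interval 7.88 to 15.0%), against 6.22% of all merged regions, and its share of wide intervals exceeded its share of all intervals in 6 of 6 lines. The wide intervals there numbered 8 in CCRF-CEM, 11 in MOLT-4, 15 in TALL-1, 16 in KOPT-K1, 19 in HBP-ALL and 20 in DND-41. Chromosome 13 held 21 loci, 6.46% (4.04 to 9.71%) against 3.26%, and was higher in 6 of 6 lines. Its wide intervals numbered 5, 9, 11, 9, 8 and 9 in that order. Chromosome 8 held 23, 7.08% (4.54 to 10.4%) against 5.13%, and was higher in 6 of 6 lines, with an interval that includes the share of regions. Chromosomes 4 and 13 carried 6 of the 15 loci wide in all lines.

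Other chromosomes had few. Chromosome 11 held 8 loci, 2.46% (1.07 to 4.79%) against 5.11% of regions, and its share was higher in 0 of 6 lines. Chromosome 17 held 6, 1.85% (0.680 to 3.97%) against 3.40%, and was also higher in 0 of 6 lines, but its interval includes the share of regions. Chromosome 15 held 2 loci, 0.615% (0.0746 to 2.21%) against 2.47%. Chromosome 22 held 0 of the 325 loci, which allows a share of up to 1.13%, against 1.23% of regions. Lines share part of their wide loci, 15 in all 6 lines and 118 in 2 to 5, so the lines are not independent counts of a chromosome, and 23 chromosomes were looked at.

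**Figure D5:**
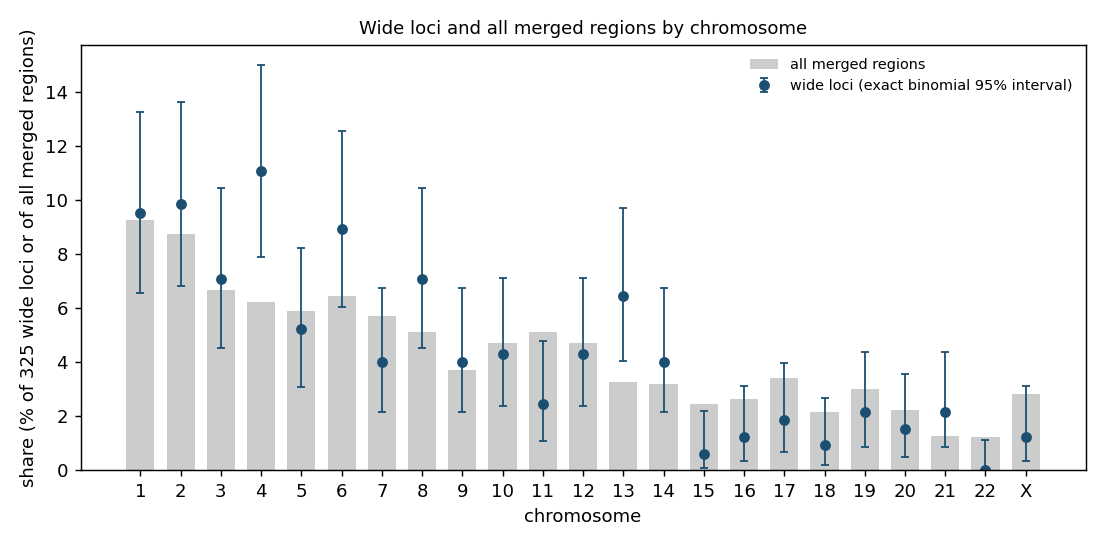
Share of the 325 wide loci (with exact 95% intervals for counting error) and of the 40110 merged regions on each chromosome (y axis, percent). Chromosome 4 stands at 11.1% of wide loci against 6.22% of regions and chromosome 13 at 6.46% against 3.26%, whereas chromosome 11 stands at 2.46% against 5.11%.

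TALL-1 had 6 of its 108 wide intervals on chromosome 21, 5.56% against 1.73% of all its intervals, and the other lines had 1 or 2 each. Of the 7 wide loci on that chromosome, 4 were wide in TALL-1 alone. At chr21:34914235-34915805 the widest interval measured 554 bp in CCRF-CEM, 1242 bp in DND-41, 691 bp in HBP-ALL, 711 bp in KOPT-K1, 1236 bp in MOLT-4 and 1571 bp in TALL-1, and the pileups were 35, 56, 54, 44, 77 and 132 tags. At chr21:36260909-36262594 TALL-1 had 1686 bp and a pileup of 112, against 72 in MOLT-4, 35 in HBP-ALL, 30 in DND-41, 26 in CCRF-CEM and 18 in KOPT-K1. Its scaled height there was 3.03 times the median of the other lines, the highest such ratio among the 154 loci. At chr21:18983855-18985458 TALL-1 had 1604 bp and the widest interval of each other line measured 408 to 814 bp. TALL-1 was the highest in pileup at each of these 3 loci. A change in the copy number of a chromosome cannot be told apart from a change in accessibility in these lists.

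Few wide loci lay near another wide locus. Of the 325 loci, 313 had no other within 100 kb, 12 formed 6 pairs and no group of 3 was found. The same count for an equal number of other regions was not made. Whether wide loci are more or less grouped than other regions was therefore not tested. The closest pair lay within chr19:56110365-56166998, a span of 56.6 kb, and both of its loci were wide in 4 lines. The nearest interval of any width lay at a median of 35980.5 to 48303 bp from a wide interval, depending on the line, against 26599 to 30352 bp for all intervals, and it was farther for wide intervals in 6 of 6 lines. For intervals of 1000 to under 1500 bp it was 34986 to 39110 bp. Within 500 kb on each side a wide locus had a median of 20 other merged regions (quartiles 15 and 25), against 18 (13 and 25) for all regions and 21 (15 and 27) for regions with a peak in every line. An interval that takes in its near neighbours has only farther ones left, so the distance is partly set by the width.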

How the data were processed

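Chromatin accessibility was measured by ATAC-seq in 6 T-ALL lines with 1 library per line. Per the labels, Tn5-treated DNA was sequenced in pairs on the NovaSeq platform. Build hg19 and the tools SAMtools, Picard, Bowtie2 and MACS2 2.1.1.2016030 are named, per the submitters' processing notes. Settings, order and any Tn5 shift were not given in these sources. Each of the deposited lists holds 1 library.

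For each summit the authors give interval ends, a score, a linear fold (a ratio to the background nearby) and p- and q-values as −log10. From the authors' fold and −log10 p, the pileup t and background c were recovered as fold = (t + 1) / (c + 1) with a Poisson p-value, and 100% of lines matched within 0.001. Relative tag depth was taken as the lowest background over the smallest width in a list, relative to CCRF-CEM, on the assumption that tags were extended to this width.

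Rows with the same ends were counted as 1 interval with several summits. Intervals of 1500 bp or more on chromosomes 1 to 22 and X were merged across lines on an overlap of 1 bp. The values of a locus are those of its widest interval in a line, and heights those of the strongest summit. Shares have exact Clopper-Pearson 95% intervals for counting error only. Lines were not tested against each other, since none has a second library. Python 3.11.15, numpy 2.4.6, pandas 2.3.3 and scipy 1.17.1 were used, and the recovery and merging were tested on simulated data. Alternatives covered the width limit, the merging, joined gaps, equal numbers of intervals, significance limits and leaving out each line.

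Named loci follow a rule: the 10 widest loci wide in every line, the widest of each line, those wide in 1 line, those missing in 1 line, the extremes of summit number, and the intervals next to the limit. Loci with a peak in 1 line alone belong to this rule, whereas the 3 loci on chromosome 21 printed last, the pair on chromosome 19 and the locus on chromosome 2 were chosen after their values were seen. The members and lists were chosen with earlier results of these data known. No genome or annotation of hg19 was used here, so genes and sequences are not given.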

Additional observations from a re-analysis of the deposited data

Results flagged for a closer look

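Widths, counts of wide loci, summit numbers, folds and heights come from the selection itself and were not searched for values that stand apart. Of 5 other sets of 6 values, 1 for each line, 2 held a value farther from the rest than Dixon's 95% limit for a gap. Chance flags about 1 in 20 sets that are free of the selection. Summit spacing, 1 of the 2 flagged, is not free of the selection on width. The number of flagged sets therefore cannot be set against this rate. The share of wide intervals with the strongest summit in the central 33.3% of their length was 30.4% in DND-41 and 34.3 to 36.1% in the other lines. The value of DND-41 was 41 of 135 intervals, and the limit takes no account of counting error within a line. Neighbouring summits were a median of 459 bp apart in CCRF-CEM and 345.5 to 388 bp in the others. The spacing is tied to the width of an interval and to the number of summits that the caller marked in it. The value of CCRF-CEM passed the limit only narrowly and is given as a description.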

How the results depend on the processing

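The counts followed the width limit. At 1.25 kb the lines had 257 (CCRF-CEM), 350 (MOLT-4), 353 (KOPT-K1), 375 (TALL-1), 491 (DND-41) and 509 (HBP-ALL) intervals, with 64 loci past the limit in every line and 494 in 1 line. At 2000 bp they had 12, 7, 7, 8, 10 and 6 in that order, with 2 loci in every line and 17 in 1 line, 88.9% of loci with a peak in every line and a mean of 4.68 summits. CCRF-CEM thus had the fewest intervals at 1.25 and 1.5 kb and the most at 2000 bp. Joining gaps of at most 500 bp, chosen after seeing the data, gave 102 (CCRF-CEM), 154 (MOLT-4), 156 (KOPT-K1), 167 (TALL-1), 198 (DND-41) and 223 (HBP-ALL) intervals and 23 loci wide in every line. Taking the 64 widest intervals of each line left 10 loci in every line and 122 in 1 line, 27 of them in CCRF-CEM and 15 to 22 in each other line. CCRF-CEM then had the most such loci, whereas it had the fewest at a common limit of 1500 bp. Leaving out a line gave 16 to 23 loci wide in all the rest, 23 of them without CCRF-CEM, and 162 to 190 in 1 line. With only summits of a −log10 p of at least 10 the mean was 2.62 summits. Joining gaps of at most 100 bp changed nothing because no gap was that short. Leaving out the 9 loci of high background, also chosen after seeing the data, gave 13 loci wide in every line and 189 in 1 line. No paired analysis was possible because each line has 1 library. Total reads are unknown, and the part of depth in the widths was not tested.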

Other observations

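The interval at chr2:153573616-153575462, wide in all 6 lines at 1596 to 1761 bp, was the last of TALL-1 before a long stretch with no peak in that line. The next interval began 11.6 kb beyond the locus in CCRF-CEM and DND-41 and 11.7 kb beyond it in HBP-ALL, KOPT-K1 and MOLT-4, but 4.69 Mb beyond it in TALL-1. The width in TALL-1 was 1596 bp, the lowest of the 6.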
